A study of Mus musculus with 2 samples.

Results

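Transcripts of 6 genes of the S100 family of small calcium-binding proteins, S100a8, S100a9, S100a4, S100a6, S100a10 and S100a11, were measured in non-parenchymal cells of fibrotic mouse liver. The 6 genes were chosen by symbol among the 32285 genes counted, and none of them was used to define a cell type. Droplet single-cell RNA sequencing gave 1 library from Mfap2+/+ mice (WT) and 1 from Mfap2-/- mice (KO). Mfap2 encodes a glycoprotein of the extracellular microfibrils. The mice of both genotypes were given CCl4, which injures hepatocytes and leaves scarred liver, intraperitoneally over 8 weeks, and no library from untreated liver was analysed here. The labels do not say how many animals entered a library or which cells lacked the gene. With 1 library per genotype there is no test between genotypes, and genotype, animal and preparation cannot be told apart. All intervals are 95% intervals that cover counting error only.

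S100 proteins bind calcium through paired EF-hand motifs and act mostly as dimers. S100a8 and S100a9 form calprotectin, a major cytosolic protein of neutrophils and of classical monocytes that is released at inflamed sites and acts on receptors such as Tlr4. S100a4 and S100a6 are found in motile and in dividing cells, S100a10 forms a complex with annexin A2 at the plasma membrane, and S100a11 binds annexin A1. In droplet data, RNA from broken cells enters droplets that hold other cells, and transcripts as abundant as S100a8 and S100a9 can then be counted there. Such RNA is called free RNA.

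The WT library held 11783 barcodes and 82499307 unique molecular identifiers (UMIs, tags that each mark 1 captured RNA molecule), and the KO library 12872 barcodes and 118226367 UMIs. After filtering, 10336 WT cells with a median of 4695.5 UMIs and 11428 KO cells with a median of 6286 remained. The libraries shared 40 barcode sequences. Mfap2 itself had 215 UMIs in the WT cells and 2 in the KO cells. Cells were assigned to a type when at least 3 distinct markers of it had a UMI and these numbered at least 2 times those of any other type. Such cells are called gated, and they were 64.7% of WT and 64.1% of KO cells. Levels are in CPM, the usual depth-scaled count, computed from the gene's share of all UMIs of the gated type. Because 3′ tags were counted, once per molecule, levels are compared between cell types and libraries and not between genes.

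All 6 genes lie on mouse chromosome 3 (GRCm38) in 2 groups. S100a4 (90603771 to 90606045), S100a6 (90612882 to 90624181) and S100a8 (90668978 to 90670035) are on the forward strand and S100a9 (90692632 to 90695721) on the reverse strand, with 22.6 kb between S100a8 and S100a9. S100a11 (93520488 to 93526287) and S100a10 (93555080 to 93564643) follow on the forward strand 2825 kb away. The count of S100a4 is uncertain, because the annotated gene Gm42674 overlaps it in the same orientation. The promoters of S100a8 and S100a9 are shown because these genes had nearly the same pattern over cell types. Each runs 5′ to 3′ from 250 bases before to 30 bases after the RefSeq start on GRCm38.p6, S100a8 at chr3:90668821-90669100 on the forward strand and S100a9 at chr3:90695692-90695971 on the reverse strand, and capitals mark TATAAA.
S100a8: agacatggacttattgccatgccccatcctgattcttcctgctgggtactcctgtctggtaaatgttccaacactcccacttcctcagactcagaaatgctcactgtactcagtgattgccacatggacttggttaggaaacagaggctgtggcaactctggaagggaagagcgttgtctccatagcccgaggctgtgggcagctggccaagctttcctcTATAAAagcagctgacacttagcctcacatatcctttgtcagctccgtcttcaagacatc
S100a9: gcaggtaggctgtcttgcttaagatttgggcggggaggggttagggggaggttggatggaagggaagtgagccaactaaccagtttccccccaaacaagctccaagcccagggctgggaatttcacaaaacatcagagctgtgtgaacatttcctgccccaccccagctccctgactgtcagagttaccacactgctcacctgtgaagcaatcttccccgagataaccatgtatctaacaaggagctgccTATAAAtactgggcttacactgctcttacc
The S100a8 match began 30 bases before the annotated start, and the S100a9 match began at the annotated start itself. Searched on both strands of 300-base windows, TATAAA was found in S100a8, S100a9 and S100a4, was not among the letters of the S100a6 and S100a11 windows, and occurred in 13.6% of all 32851 promoters. TTGCNNAA occurred in the S100a9 window, 236 bases before the start, and in 10.8% of all promoters. GAGGAA occurred 2 times for S100a8, 1 time each for S100a4 and S100a11, and in 28.3% of all promoters. The promoter table matched 5 of the 6 genes, S100a10 being the exception.

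S100a8 and S100a9 were neutrophil transcripts in both libraries. S100a8 stood at 47639 CPM (47367 to 47913) in the 960 WT neutrophil-gated cells and at 37700.1 CPM (37461 to 37940.3) in the 809 KO cells. S100a9 stood at 60633 CPM in WT and 48353 CPM in KO neutrophil-gated cells. The median cell held 60 S100a8 UMIs in WT and 57 in KO, with maxima of 2470 and 2612, so the gene varied widely among cells of the type. Neutrophil-gated cells were 9.29% of WT and 7.08% of KO cells and carried 45.5% and 50.7% of all S100a8 UMIs. When clusters of cells replaced the gate, the neutrophil-like cells numbered 1267 in WT and 996 in KO. They held 233251 of 257671 WT and 161860 of 187721 KO S100a8 UMIs, so the gate left out neutrophil-like cells rich in S100a8.

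Among neutrophil-gated cells the level differed with granule transcripts. Camp, Ngp and Ltf encode secondary granule proteins and are transcribed in maturing neutrophils. The 141 WT and 107 KO cells with at least 5 UMIs of these 3 genes together held S100a8 at 87463 and 78509 CPM. The other 819 WT and 702 KO cells held it at 32228 CPM (31965 to 32493) and 24879.8 CPM (24657 to 25104). The cells with granule transcripts were also deeper, with a median of 3999 against 2104 UMIs in WT and 4970.0 against 2650.0 in KO. S100a11 ran the other way, at 2053 CPM with and 2869.8 CPM without granule transcripts in WT and at 2561 and 2832 CPM in KO. S100a6 stood at 5394 CPM with and 5512 CPM without them in WT, with overlapping intervals, and at 4252 and 3689.7 CPM in KO.

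**Figure D1:**
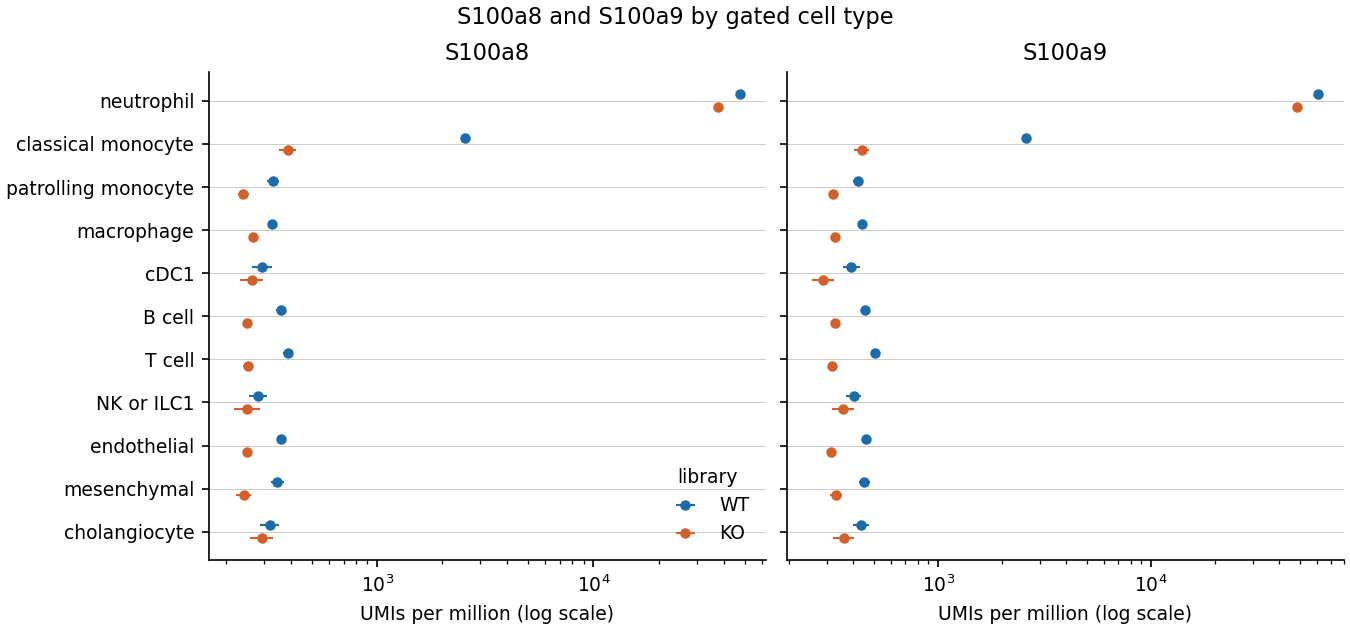
Levels of S100a8 (left) and S100a9 (right) in CPM on a log axis for 11 gated cell types, WT in blue and KO in orange, with exact Poisson 95% intervals. Neutrophils stand far to the right, WT classical monocytes lie between, and the other 9 types form a narrow column, between 281 and 385 CPM for S100a8 in WT.

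Outside neutrophils and classical monocytes the level hardly depended on the cell type. Over the other 9 types S100a8 ranged from 281 to 385 CPM in WT and from 241 to 292 CPM in KO, a highest-to-lowest ratio of 1.37 and 1.21. S100a9 ranged from 392 to 508 CPM in WT and from 288 to 361 CPM in KO. B cell-, T cell- and endothelial-gated cells, which are not known to transcribe the pair, were pooled as background cells. They held S100a8 at 366 CPM (356 to 376) in WT and 250.2 CPM (244 to 257) in KO. Of these background cells 72.6% in WT (median 3988 UMIs) and 71.0% in KO (median 5324 UMIs) had an S100a8 UMI, so a UMI by itself did not mark expression. With every cell thinned to 1000 UMIs, which left out 97 WT and 90 KO background cells, the shares were 29.9% and 22.3%, against 96.7% and 95.0% in neutrophil-gated cells.

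The 9 types also kept the neutrophil proportion of S100a8 to other neutrophil genes, though not always that to S100a9. S100a8 was set against 5 other neutrophil genes, Retnlg, Wfdc21, Asprv1, Stfa2 and Stfa2l1, called tracers here. Neutrophil-gated cells held 3.22 S100a8 UMIs per tracer UMI in WT and 3.81 in KO, and background cells held 3.23 (3.05 to 3.43) and 3.77 (3.57 to 3.99). Relative to the neutrophils of the same library, the 9 types lay between 0.900 and 1.13 in WT and between 0.828 and 1.23 in KO. The interval held 1 in 9 of 9 types in each library. The tracers themselves differed between libraries: 3 of the 5, Asprv1, Stfa2 and Wfdc21, were at least 1.5-fold lower in KO neutrophils, where 8.23% of all genes were. The S100a8 to S100a9 ratio was 0.786 in WT neutrophils and 0.773 in WT background cells, and 0.780 and 0.785 in KO. In WT the 9 types lay between 0.699 and 0.785. WT macrophages, at 0.735 (0.705 to 0.767), were below the WT neutrophils beyond counting error. In KO the 9 types lay between 0.700 and 0.912, with macrophages at 0.810 (0.772 to 0.849). The tracer comparison depends on the reference cells. All kept cells together held 4.54 S100a8 UMIs per tracer UMI in WT and 4.76 in KO, 1.41 and 1.25 times the ratio of neutrophil-gated cells. Which cells gave the free RNA was not tested. By the tracer ratio of neutrophil-gated cells, S100a8 in the 9 types could not be told apart from free neutrophil RNA. In macrophages, with ratios to the neutrophils of 0.998 (0.934 to 1.07) in WT and 1.01 (0.937 to 1.10) in KO, no S100a8 beyond it was detectable at this depth.

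**Figure D2:**
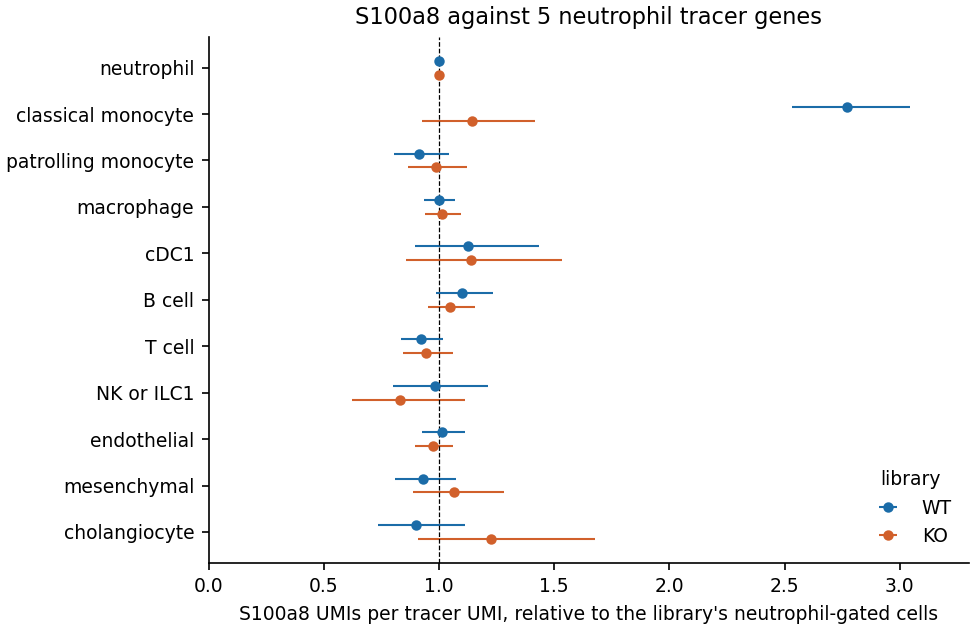
S100a8 UMIs per UMI of 5 neutrophil tracer genes, divided by the ratio in the neutrophil-gated cells of the same library (dashed line at 1), for 11 gated types with exact conditional 95% intervals, WT in blue and KO in orange. WT classical monocytes stand apart at 2.77, and every other interval reaches the line.

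The background followed the depth of the cell. With background cells split into 3 equal groups by UMI total, S100a8 UMIs per cell were 0.983, 1.41 and 2.79 from shallow to deep in WT and 0.778, 1.41 and 2.51 in KO. The same groups differed little in CPM in KO, at 256, 260.4 and 243. In WT the shallow group stood at 468 CPM and the others at 348 each. T cell-gated cells of the WT library held a single cell with 284 S100a8 and 321 S100a9 UMIs, 18.4% of the S100a8 of the type, and without it the type stood at 315 CPM in place of 385.

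**Figure D3:**
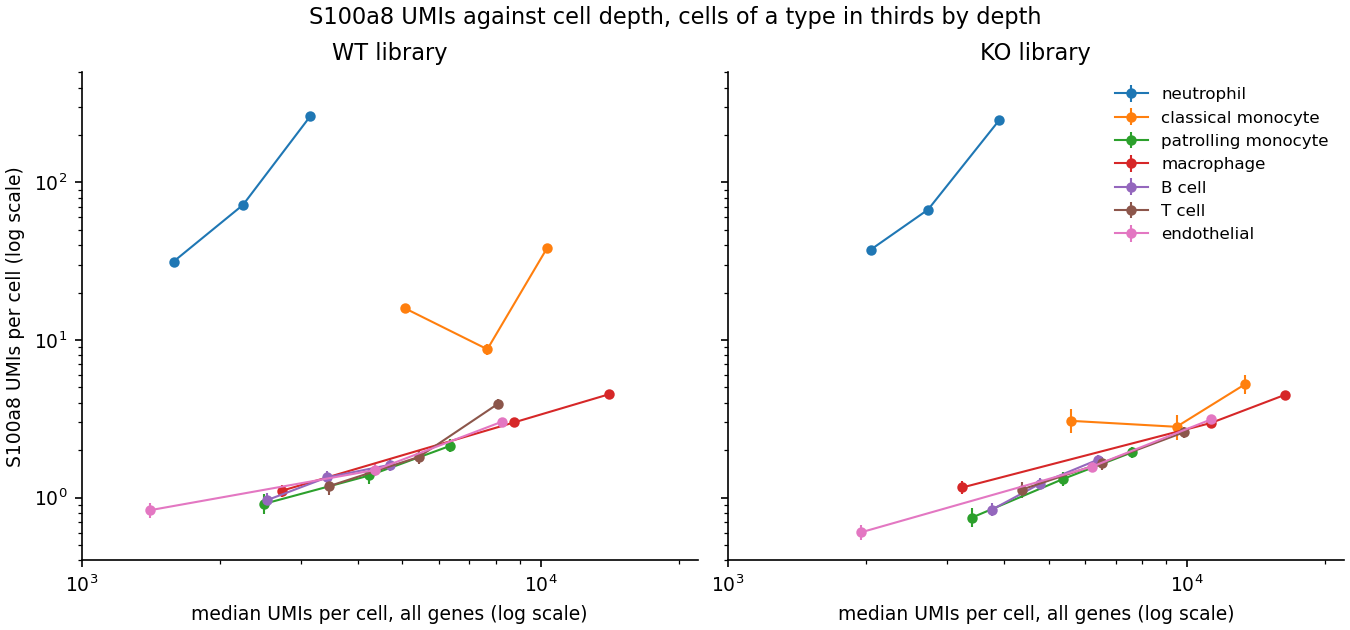
Mean S100a8 UMIs per cell against the median UMI total, both on log axes, for cells of 7 gated types split into 3 groups by depth, WT left and KO right, with Poisson 95% intervals. Macrophages, patrolling monocytes, B, T and endothelial cells fall along 1 line in each library, with neutrophils far above it and WT classical monocytes between.

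Classical monocytes were the other type with S100a8 and S100a9 above the background, and here the libraries differed most. S100a8 stood at 2558 CPM (2485 to 2634) in 217 WT cells and 385 CPM (352 to 422) in 129 KO cells, a log2 ratio of KO over WT of -2.73 (-2.87 to -2.59). S100a9 stood at 2571 and 437 CPM, a log2 ratio of -2.55 (-2.69 to -2.43). Per cell, S100a8 was 12.2-fold above the background cells in WT and 2.37-fold in KO. The still deeper cDC1, at only 293 CPM in WT and 263 CPM in KO, stood at 2.30-fold and 2.77-fold per cell. Classical monocyte-gated cells were deeper than background cells, and on the CPM scale their ratios were 6.99 and 1.54. The tracer ratio was also taken for classical monocytes. The S100a8 to tracer ratio was 2.77 times that of neutrophils in WT (2.53 to 3.04) and 1.14 times in KO (0.926 to 1.42), so the KO excess was not separated from free neutrophil RNA by this measure. Cells that passed no gate stood at 2.39 times in WT and 1.91 times in KO. A ratio above 1 therefore does not separate S100a8 of monocytes from that of other S100a8-rich cells.

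A few cells carried the WT level. The median WT and KO classical monocyte-gated cell both held 3 S100a8 UMIs, against 1 in background cells. The median of the deeper cDC1 was 4 in WT and 4.5 in KO. In WT 21 classical monocyte-gated cells (9.68%) held at least 20 S100a8 UMIs, with a maximum of 1652, and 5 cells held 62.4% of the type's S100a8. In KO 2 cells (1.55%) reached 20 UMIs, with a maximum of 36. Among background cells 4 of 2853 in WT and 2 of 3872 in KO did so. Granule transcripts were found in a part of the WT classical monocyte-gated cells with at least 20 S100a8 UMIs. In WT 26 of 217 cells held at least 5 UMIs of Camp, Ngp and Ltf together, with S100a8 at 10354 CPM and Elane, a primary granule protease gene, at 1132 CPM. In KO 3 of 129 cells did, with S100a8 at 312 CPM and Elane at 1486 CPM. These levels rested on single cells. Of the 26 WT cells, 1 held 1652 of the 3264 S100a8 UMIs and 1 held 182 of the 357 Elane UMIs. Of the 3 KO cells, 1 held 79 of the 81 Elane UMIs. Leaving out the cells with granule transcripts was a setting chosen after seeing the data. S100a8 then stood at 888 CPM (840.3 to 937) in WT and 389 CPM (354 to 426) in KO, a log2 ratio of -1.19. The S100a9 ratio was -0.48. With the 5 richest cells removed from each library, the S100a8 ratio was -1.66 and the S100a9 ratio -1.34. Of the 21 WT cells with at least 20 UMIs, 11 had no granule transcripts at that minimum, and neither did the 2 KO cells. When clusters replaced the gate, 485 WT and 472 KO classical monocyte-like cells stood at 838 and 359 CPM. Gate margins were thin in this type, with 30.4% of WT and 44.2% of KO cells at a limit of the gate. The part of cells with granule transcripts in the difference between libraries, beyond these values, was not tested.

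The remaining 4 genes differed between cell types. S100a4 was highest in classical monocytes, at 1075 CPM (1028 to 1125) in WT and 1132 CPM (1074 to 1193) in KO. Patrolling monocytes followed at 682 and 562 CPM, T cells at 339 and 274, and NK or ILC1 cells at 258 and 234. The other 7 types, neutrophils among them, held between 22.5 and 47.4 CPM in WT and between 27.7 and 48.6 CPM in KO, and many neighbours in that order overlapped. S100a4 was at 31.7 CPM in WT neutrophils, so their free RNA at its ratio to S100a8 would give under 1% of the level in each of the 10 other types of either library. Free RNA from the types highest in S100a4 was not estimated. How much of the level in the 7 low types is free RNA was therefore not tested. S100a4, often used as a fibroblast marker, was at 30.6 CPM (23.9 to 38.6) in WT and 30.01 CPM (23.6 to 37.6) in KO mesenchymal-gated cells, and at 47.4 and 40.1 CPM in macrophages. Among macrophages it was 33.8 CPM in WT and 41.3 CPM in KO cells with a UMI of Clec4f, a Kupffer cell gene, and 58.5 and 39.2 CPM in those without.

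S100a6 was highest in neutrophils, at 5479 CPM (5387 to 5572) in WT and 3824 CPM (3748 to 3901) in KO. Classical monocytes followed at 2377 and 1804 CPM and T cells at 861 and 549 CPM. NK or ILC1 cells stood at 704 and 475 CPM and patrolling monocytes at 674 and 427 CPM, with the WT intervals of these 2 types overlapping. Mesenchymal-gated cells held 369 and 366 CPM. The lowest level was that of endothelial cells, 113 CPM in WT and 65.1 CPM in KO. At the neutrophil ratio of S100a6 to S100a8, free RNA would give 36.4% of the endothelial level in WT and 38.8% in KO, 26.8% and 32.9% of the B cell level, and 23.6% and 26.6% of the macrophage level. For T cells this share was 5.15% and 4.68%.

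S100a10 was lowest in neutrophils, at 54.9 CPM (46.0 to 64.9) in WT and 49.1 CPM (40.8 to 58.5) in KO. In WT, classical monocytes held 791 CPM (750.3 to 833) and NK or ILC1 cells 740.4 CPM (696 to 787), with overlapping intervals. In KO they held 655 and 719 CPM, again with overlapping intervals. T cells followed at 607 and 515 CPM, cholangiocytes at 537 and 316 CPM, and endothelial cells at 342 and 224 CPM. Its membrane partner Anxa2 was highest in classical monocytes, at 836 and 676 CPM, and stood at 677 and 492 CPM in neutrophils.

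S100a11 was highest in neutrophils, at 2642 CPM (2578 to 2707) in WT and 2767 CPM (2703 to 2833) in KO. Cholangiocytes held 740 CPM (691 to 791) in WT and 481 CPM (436 to 530.0) in KO, and classical monocytes 694 and 630 CPM. Mesenchymal-gated cells held 542 and 435 CPM and cDC1, the cross-presenting dendritic cells, 456 and 366 CPM. The lowest levels were those of macrophages, 102 and 113 CPM, and of B cells, 120.3 and 111 CPM, of which free RNA at the neutrophil ratio would give 17.7% and 17.2%, and 16.5% and 16.4%.

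**Figure D4:**
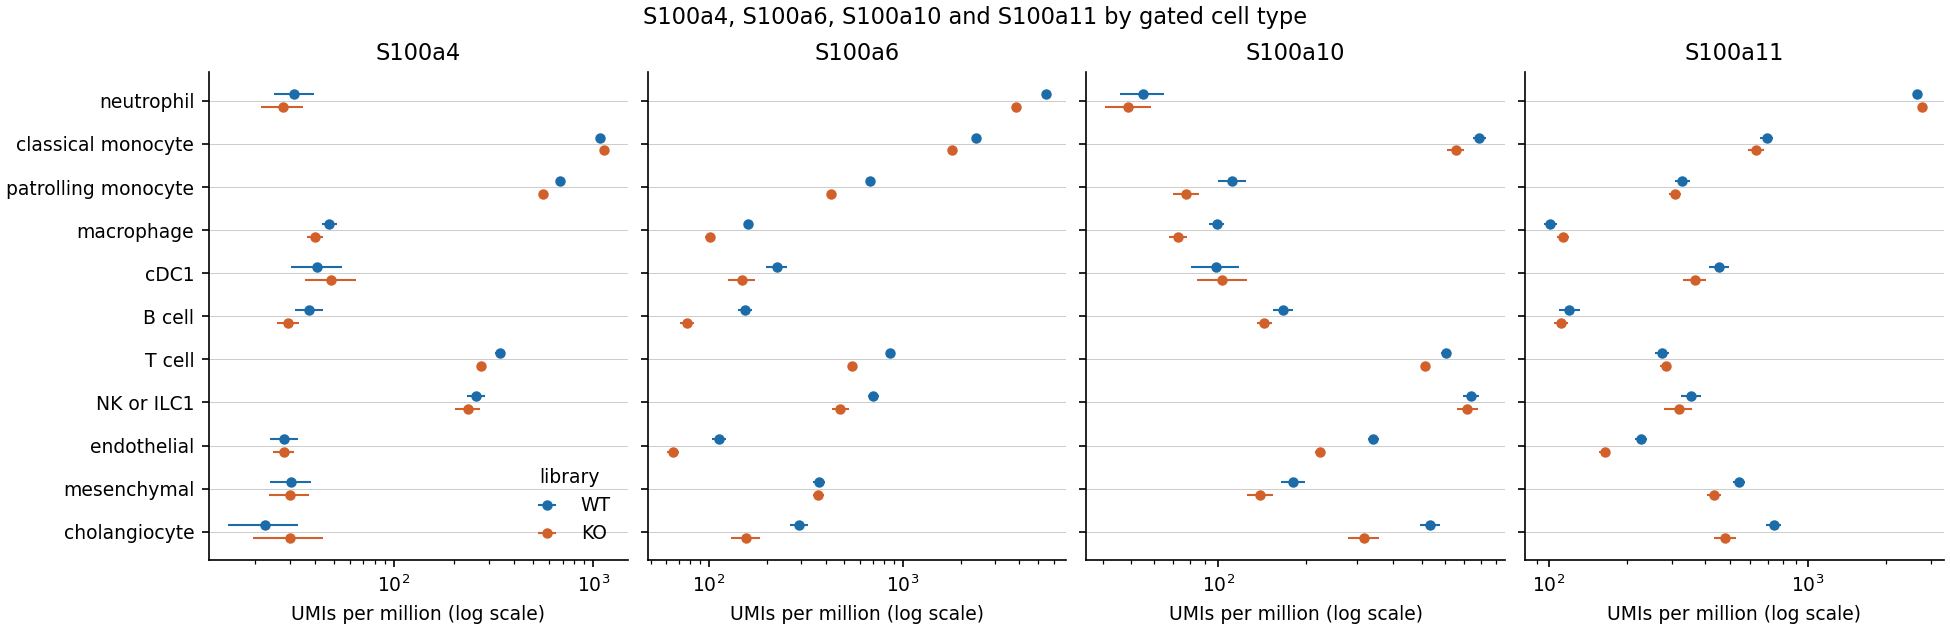
Levels of S100a4, S100a6, S100a10 and S100a11 in CPM on log axes for 11 gated cell types, WT in blue and KO in orange, with exact Poisson 95% intervals. S100a4 peaks in classical monocytes, S100a6 and S100a11 in neutrophils, and S100a10 is lowest in neutrophils.

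KO levels were mostly below WT levels. By cell type, at least 1.5-fold lower in KO were 3 of the 6 genes in T cells, where 6.3% of all genes tested were that much lower, and 3 in cholangiocytes (12.7%). They numbered 2 in classical monocytes (7.57%) and 2 in endothelial cells (13.2%). The number was 1 of 6 in patrolling monocytes (7.84%), macrophages (6.18%), cDC1 (6.56%) and B cells (6.31%), each time S100a6. There were 0 in neutrophils (8.23%), NK or ILC1 cells (7.33%) and mesenchymal cells (10.4%). In T cells 1 of the 3, S100a6, remained once the 5 richest cells per library were removed. Of the 6 genes, 0 were at least 1.5-fold higher in each of the 11 types. The shares of all genes that much higher were 17.4% in neutrophils, 17.7% in classical monocytes and in macrophages, 13.8% in patrolling monocytes, 18.1% in cDC1 and in NK or ILC1 cells, 11.7% in B cells, 13.6% in T cells, 11.2% in endothelial cells, 19.6% in mesenchymal cells and 22% in cholangiocytes. Among macrophages split by Clec4f, 0 of 6 were lower in cells with it (8.01% of genes lower, 17.1% higher) and 1, S100a6, in cells without it (7.03% lower, 17.6% higher). Over all kept cells S100a8, S100a9 and S100a6 were lower (6.02% of genes lower, 16.4% higher). These pooled values also depend on the mix of types. Neutrophil-gated cells were 9.29% of the WT and 7.08% of the KO library. Cells of any kind with S100a8 above 5000 CPM were 10.9% and 7.28%. The share of the pooled difference due to this mix was not tested. The median log2 ratio of all genes tested was between 0.08 and 0.15 in 10 types and -0.03 in endothelial cells. Relative to that median, S100a8, S100a9, S100a6 and S100a10 were below it in 11 of 11 types, S100a11 in 10 and S100a4 in 8.

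The S100a6 log2 ratio of KO over WT was below 0 beyond counting error in 10 of 11 types, from -0.99 (-1.16 to -0.83) in B cells to -0.40 in classical monocytes. The exception was mesenchymal cells at -0.01 (-0.15 to 0.12). S100a6 was at least 1.5-fold lower in KO in 7 types, among them cholangiocytes (-0.90), endothelial cells (-0.79), patrolling monocytes (-0.66), T cells (-0.65) and macrophages (-0.64). After the share at the neutrophil ratio was taken off, the log2 ratio was -1.12 in B cells, -0.85 in endothelial cells and -0.70 in macrophages. In mesenchymal cells it was 0.05. This step counts all S100a8 of a type as free neutrophil RNA. The value is not given for classical monocytes, whose WT S100a8 to tracer ratio was not that of the neutrophils. Once the 5 richest cells per library were removed, 7 types passed 1.5-fold, 6 of them in common: macrophages no longer passed, at -0.57, and NK or ILC1 cells did, at -0.72. In neutrophils the S100a6 log2 ratio was -0.52 (-0.56 to -0.48), with S100a8 at -0.34 (-0.35 to -0.33) and S100a9 at -0.33 (-0.34 to -0.32).

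S100a10 was at least 1.5-fold lower in KO in cholangiocytes, at -0.76 (-0.97 to -0.56), and in endothelial cells, at -0.61 (-0.69 to -0.52). S100a11 was so in cholangiocytes, at -0.62 (-0.79 to -0.45), and stood slightly above 0 in neutrophils, at 0.07 (0.02 to 0.12), and in macrophages, at 0.16 (0.05 to 0.28). Both depended on the scaling. With median-of-ratios scaling the neutrophil value was -0.035 and the macrophage value 0.045 (-0.07 to 0.16), and with cells thinned to 1000 UMIs the macrophage value was -0.094 (-0.47 to 0.27). S100a4 did not pass 1.5-fold in any of the 11 types, and its ratio was below 0 beyond counting error in 4, patrolling monocytes (-0.28), T cells (-0.31), macrophages (-0.24) and B cells (-0.36). In the 9 types at the free-RNA background, S100a8 ratios ran from -0.60 in T cells to -0.13 in cholangiocytes, beside -0.34 in the neutrophils themselves. The T cell value was -0.35 once the 5 richest cells per library were removed.

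Ribosomal protein genes, looked at after these values were seen, were also lower in KO. Their median log2 ratio was below 0 in 11 of 11 types, from -0.76 in mesenchymal cells and -0.65 in endothelial cells to -0.29 in cDC1. In B cells it was -0.43, in T cells -0.31 and in macrophages -0.48, beside S100a6 at -0.99, -0.65 and -0.64. In mesenchymal cells the order was the other way, with S100a6 at -0.01, and in classical monocytes the ribosomal median was -0.48 and S100a6 -0.40. Genes at 100 CPM or more had medians between 0.03 and 0.19. The part of this shift in the S100 values was not tested.

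**Figure D5:**
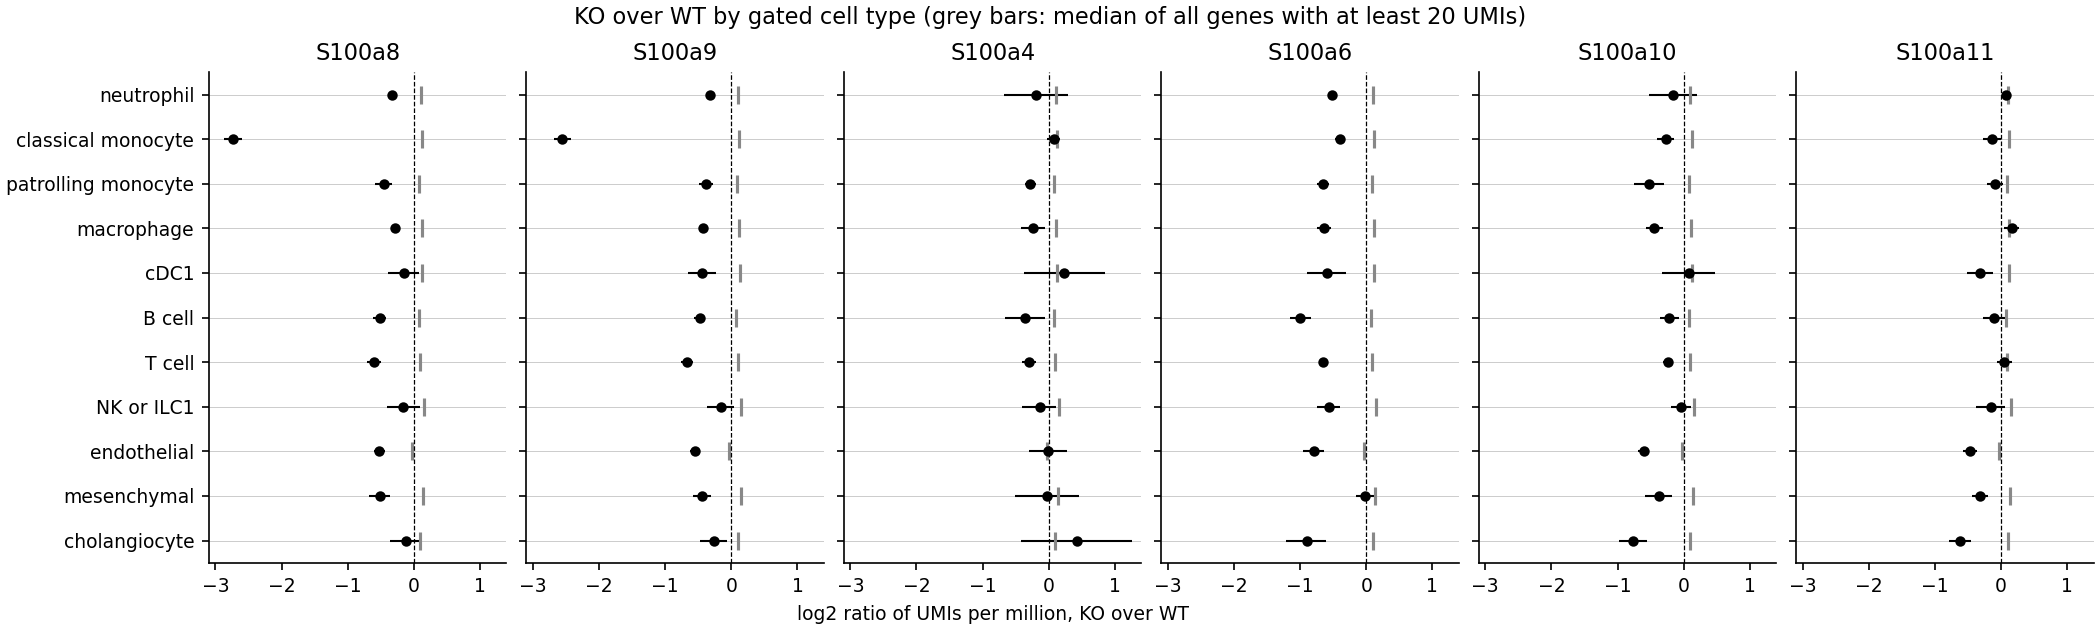
Log2 ratio of KO over WT levels for the 6 genes in 11 gated cell types, with exact conditional 95% intervals, a dashed line at 0 and grey bars at the median of all genes tested in the type. S100a6 lies left of 0 in 10 types and at -0.01 in mesenchymal cells, and S100a8 and S100a9 stand farthest left in classical monocytes.

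Of the other 10 S100 genes listed, at most 3 had enough UMIs to be compared within a gated type. S100a13, S100a16 and S100a1 were highest in WT endothelial cells, at 322, 305 and 125 CPM, against 209, 194 and 77.9 CPM in KO, and all 3 were at least 1.5-fold lower there, where 13.2% of all genes were. S100a1 was so in mesenchymal (10.4% of genes) and in NK or ILC1 cells (7.33%) too, S100a16 was at least 1.5-fold higher in neutrophils (17.4%), at 6.10 and 11.5 CPM, and in the other 7 types 0 passed in either direction. Over all kept cells 8 of the 10 were compared, with S100g higher, at 44 WT and 211 KO UMIs, and S100a7a and S100a14 lower, at 13 and 8 and at 43 and 35 UMIs (16.4% of genes higher, 6.02% lower). S100a3, S100a5, S100a7a, S100a14, S100b, S100g and S100z stood at or under 3.47 CPM in each of the 11 types. Among 12 receptors and partners, 11 were tested in endothelial cells, where 3 were at least 1.5-fold lower in KO and 0 higher (13.2% and 11.2% of all genes). In cholangiocytes 3 of 9 were higher and 1 lower (22% and 12.7%), in NK or ILC1 cells 3 of 11 higher and 1 lower (18.1% and 7.33%), and in macrophages 1 of 11 higher and 2 lower (17.7% and 6.18%). Patrolling monocytes had 2 of 11 higher (13.8%), neutrophils, T cells and cDC1 1 each, mesenchymal cells 1 of 11 lower, and classical monocytes and B cells 0 in either direction. Tlr4, the innate receptor for calprotectin, was at 52.8 CPM in WT and 98.2 CPM in KO neutrophils, a log2 ratio of 0.89 (0.58 to 1.21). It was at 44.6 and 44.7 CPM in macrophages and at 70.6 and 79.1 CPM in endothelial cells. Ager, the receptor for advanced glycation end products, had 37 UMIs among all WT and 42 among all KO cells. Bsg, another calprotectin receptor, was highest in cholangiocytes, at 1382 and 765 CPM. Anxa2 was 1.75-fold lower in KO endothelial cells, at 208 and 119 CPM, beside S100a10. Ahnak, a large scaffold that binds the S100a10 and annexin A2 complex, went the other way in patrolling monocytes, at 403 CPM in WT and 636 in KO, a log2 ratio of 0.66.

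The genes most like each of the 6 over cell types were found by Pearson correlation of log2(CPM + 10) over 22 points, 11 types in each of 2 libraries, which share library, depth and free RNA. S100a8 and S100a9 correlated with each other at 0.999. S100a8 was nearest to Wfdc21 (0.988), Ngp (0.986) and Camp (0.982), all highest in neutrophils, and S100a9 to Ngp (0.991), Wfdc21 (0.985) and Camp (0.984). S100a6 was nearest to Prdx6 (0.941), Cdkn2d (0.932) and Ltb4r1 (0.919), and S100a11 to Atxn10 (0.902), Il1rap (0.862) and Smim3 (0.850). Likeness was lower for S100a10, with Higd1a at 0.882, Ndufs4 at 0.863 and Selenoh at 0.861, and for S100a4, with Auh and Areg at 0.849 each and Abracl at 0.838. S100a6 and S100a11 correlated at 0.809 with each other, and S100a10 and S100a8 at -0.34.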

How the data were processed

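The authors deposited raw UMI counts per gene and cell barcode for both libraries (Chromium 3′ v3, per the labels' protocols). Per the file headers the matrices come from Cell Ranger 7.0.1, while the submitters' processing notes name Cell Ranger 3.1.0, Seurat and mm10. The lowest total per barcode was 500 UMIs. Barcodes under 200 genes or over 20% mitochondrial UMIs were dropped, and the highest Scrublet scores (scanpy 1.11.5) were removed at 0.8% per 1000 cells, 1034 WT and 1295 KO cells. The automatic threshold marked 0 WT cells and 717 KO cells, so it did not work in the WT library. Cells were gated on 153 of 154 listed markers of 18 types. The 11 types with at least 30 cells in each library were used.

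UMIs were summed per type and library. Log2 ratios have 1 count added to each sum. Intervals are exact Poisson for levels, Clopper-Pearson for shares and exact conditional for ratios, and 3 counts stand as the upper limit of a count of 0. Genes with 20 or more UMIs in the 2 libraries together were counted against 1.5-fold, which is what tested means here. In macrophage counts simulated as Poisson over 13379 genes, 95.8% of ratio intervals held the true value. This checks the computation only, because the intervals assume Poisson counts. Real cells varied more: among WT neutrophil-gated cells the variance of S100a8 UMIs was 288 times the mean. Gene positions are from GENCODE M21, which held 32158 of the 32285 identifiers.

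The 6 genes, the lists and the markers were chosen with earlier results of these data known. The text names these 6 genes, the listed relatives, partners and tracers (5 of 7 tracers were found), and per gene the 3 most correlated of 7051 genes that reached 50 CPM, markers, mitochondrial, ribosomal protein and haemoglobin genes left out. Ribosomal protein genes, granule genes and Elane were added after values were seen.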

Additional observations from a re-analysis of the deposited data

Results flagged for a closer look

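S100a11 in macrophage-gated cells had a log2 ratio of KO over WT of 0.16 (0.05 to 0.28), while in cholangiocyte-gated cells it was -0.62 (-0.79 to -0.45), opposite directions for the same gene and contrast. The macrophage direction was not stable: it was 0.045 (-0.07 to 0.16) with median-of-ratios scaling and -0.094 (-0.47 to 0.27) with cells thinned to 1000 UMIs. The difference between these types was not tested, since each rests on 1 library per genotype.

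Cells that passed no gate, 3645 in WT and 4101 in KO, entered no comparison within a gated type. They were part of the values over all kept cells and of the clusters. These cells held S100a8 at 3896 CPM in WT and 1665 CPM in KO, above the 366 and 250.2 CPM of the background cells. Of them 296 in WT and 164 in KO stood above 5000 CPM and held 44.2% and 35.9% of all S100a8 UMIs of the library. Granule transcripts were present in 185 and 95 of these S100a8-rich cells. Their median number of neutrophil markers was 5 in WT and 6 in KO, and that of classical monocyte markers 3 and 4. In 234 of the 296 WT and 150 of the 164 KO cells, no other type had more markers than neutrophils.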

How the results depend on the processing

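All values here are log2 ratios of KO over WT unless stated. With cells given to the type with the most markers, S100a8 and S100a9 were at -0.46 and -0.41 in neutrophils and -1.88 and -1.53 in classical monocytes, and in macrophages S100a6 was at -0.44, S100a10 at -0.18 and S100a11 at 0.29. With clusters in place of gates the neutrophil values were -0.36 and -0.30 and the classical monocyte values -1.22 and -0.83, and macrophage S100a6 and S100a10 were at -0.47 and -0.23. With the mean of per-cell CPM the neutrophil values were -0.30 and -0.31, the classical monocyte values -3.00 and -3.14, and macrophage S100a4 and S100a10 -0.43 and -0.60. Median-of-ratios scaling gave -0.44 and -0.43 in neutrophils, and -0.75 for S100a6 and 0.045 (-0.07 to 0.16, now spanning 0) for S100a11 in macrophages. Thinning to 1000 UMIs gave -0.82 for S100a6 and -0.65 for S100a10 in macrophages and reversed S100a11 there, at -0.094. The cause was not tested. Without the 5 richest cells neutrophil S100a9 was at -0.35 and classical monocyte S100a8 and S100a9 at -1.66 and -1.34, and without cells holding granule transcripts, a setting chosen after seeing the data, at -1.19 and -0.48.

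S100a8 UMIs per cell in classical monocytes over background cells, 12.2 in WT, were 11.2 with at least 4 markers, 5.10 with clusters, 7.62 thinned, 4.70 without the 5 richest cells, 3.96 without granule-transcript cells and 6.99 on the CPM scale. The KO value, 2.37, was 4.59 with the most markers, 2.80 with clusters, 2.0 with no doublets removed, 1.63 thinned, 1.89 without the 5 richest cells and 1.54 on the CPM scale. The CPM comparison was also chosen after seeing the data. No paired analysis was possible because each genotype has 1 library, and for the same reason no replicate could be left out. Counting intervals do not cover differences between animals.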
